A study of Mus musculus with 2031 samples.

Results

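Genes of the machinery by which cells recognise and take up dying cells and synapses were followed across the cell types and regions of adult mouse brain: the receptors Mertk, Axl and Megf10, the bridging proteins Gas6, Pros1 and Mfge8, and the integrin subunits Itgav and Itgb5. These 8 genes were taken by symbol from the 49568 of the series-wide count table, and all 8 were found there. MERTK and AXL are receptor tyrosine kinases of the TAM family. They do not touch the dying cell themselves but bind GAS6, and MERTK also binds protein S, the product of Pros1. These ligands, once carboxylated with the help of vitamin K, attach to phosphatidylserine on the outer face of the target membrane. MFGE8 bridges the same lipid to the integrin pair alpha v beta 5, encoded by Itgav and Itgb5, and MEGF10 binds the complement protein C1q on targets. Astrocytes are known to engulf synapses in a MERTK- and MEGF10-dependent way, and microglia, mural and endothelial cells also carry members of these families.

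The study profiled single cells of untreated C57BL/6J mice at postnatal day 56 in order to compare astrocytes of cortex and hippocampus. Cell suspensions were made by papain digestion and a Percoll gradient, and cells positive for the astrocyte surface protein ATP1B2 (ACSA-2 antibody), negative for the oligodendrocyte antigen O1 and negative for the dead-cell dye 7-AAD were sorted into wells for Smart-seq2, a full-length cDNA protocol, with ERCC control RNAs. Cortex 1 and cortex 2 were each prepared from 1 mouse, both of a single litter, whereas hippocampus 1 and hippocampus 2 were each a pool of 4 littermates from 2 further litters, and region therefore coincides with litter and with how many mice were pooled. The suspension was the replicate, 2 per region, and the authors' cell types and their astrocyte subtypes AST1 to AST5 were used as given.

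Count files of 2030 cells were used, 1982 of them with a type: 1781 astrocytes, mural cells (27, 12, 48 and 47 in cortex 1, cortex 2, hippocampus 1 and hippocampus 2), and 30 endothelial, 11 microglial, 9 oligodendrocytic and 17 neuronal cells. Gene counts per cell ran from 600758 to 3238215 with a median of 1458411, and the suspension medians lay between 1351590 and 1545143. Each type carried its own markers, summed over the list in CPM, counts scaled to 1000000 gene counts of the sum: 42970 to 44730 for astrocyte markers in astrocytes, 48510 to 58050 for mural markers in mural cells, 50310 to 66200 for microglial markers in microglial cells. In the neuronal cells, all of hippocampus, the neuron list summed to only 2329 to 3069 CPM, with Rbfox3 and Nrgn at 0. Endothelial sums also held 10000 to 25400 CPM of mural markers, and microglial sums 395 to 7731 CPM of astrocyte markers; their part in the levels below was not tested. The gate for ATP1B2 and against O1 leaves few non-astrocytes, and those that passed it may not stand for their types in the tissue.

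Levels are given as CPM of the counts summed over all cells of a type in a suspension, and sums of fewer than 3 cells entered no test. Differences are log2 values from edgeR's quasi-likelihood test, adjusted by the Benjamini-Hochberg method over all genes tested, with calls at an adjusted p under 0.05. Counts are PCR reads without molecular identifiers, so intervals on shares of cells and the limits that a count of 0 allows cover counting error only. Per kilobase of annotated exon, Mfge8 was the most abundant of the 8 genes in astrocytes at 1686 CPM per kb, followed by Mertk at 126.2, Gas6 at 55.1, Axl at 43.6, Itgb5 at 25.4, Megf10 at 12.04, Itgav at 10.9 and Pros1 at 9.23.

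Mertk (GRCm38, chromosome 2, 128698956 to 128802894, plus strand) had the highest level in astrocytes of the 3 receptors Mertk, Axl and Megf10. Its level in astrocytes was 709.6 CPM in cortex 1, 657.8 in cortex 2, 395.3 in hippocampus 1 and 426.7 in hippocampus 2, and a count was found in 1236 of 1781 cells (69.4%, 95% Wilson interval 67.2 to 71.5). Mural cells stood lower in every suspension, at 74.6, 107.5, 68.3 and 40.55 CPM, with a count in 16 cells (11.9%, 7.49 to 18.5), and endothelial cells at 47.2, 0, 93.8 and 35.2 CPM. Neither type overlapped astrocytes, but neither difference was called: the log2 difference was -3.61 (SE 1.59, adjusted p = 0.158) for mural and -4.67 (SE 1.70, adjusted p = 0.0636) for endothelial cells in edgeR, while DESeq2 called both (adjusted p = 0.0471 and 0.0025). Microglial cells, for which MERTK is a known receptor, gave 396.1 CPM in cortex 1, 4.57 CPM in cortex 2 and 404.7 CPM in hippocampus 2, each a sum of 3 cells and each below the astrocytes of its own suspension, and the 2 cells of hippocampus 1, too few for a test, gave 559.8 CPM. Oligodendrocytic cells (0 and 0.41 CPM) and neuronal cells (0.064 and 0 CPM) held almost no Mertk.

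Axl (chromosome 7, 25757273 to 25788705, minus strand), the TAM receptor that binds GAS6 most tightly, was highest in mural cells. These gave 1077, 830.8, 874.9 and 706.6 CPM against 179.2, 225.4, 249.6 and 224.3 CPM in astrocytes, and a count was found in 85 mural cells (63.4%, 55.0 to 71.1) against 682 of 1781 astrocytes (38.3%, 36.1 to 40.6). The groups did not overlap, yet with the wide spread between sums of this fit the log2 difference of 1.33 (SE 1.47) was not called (adjusted p = 0.788). Of the 16 alternatives only limma on mean log2 values per cell called it (log2 difference 3.19, SE 0.95, adjusted p = 0.0295). Endothelial cells varied from 0 in cortex 1 to 439.2 CPM in cortex 2, on both sides of the astrocytes. No Axl count was found in the 11 microglial, 9 oligodendrocytic and 17 neuronal cells, which allows shares of up to 27.3%, 33.3% and 17.65%. Set against a floor of 3 counts over the group, the astrocyte level was 1244-fold that of microglial cells. This floor covers the counting of reads and not the small number of cells, so it is no lower bound for the type. The difference was called (edgeR, adjusted p = 0.0153), though not without cortex 2, hippocampus 1 or hippocampus 2 (adjusted p up to 0.161).

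Megf10 (chromosome 18, 57133090 to 57297467, plus strand), a receptor with multiple EGF-like domains, was found in astrocytes and almost nowhere else. Astrocytes gave 85.2, 102.6, 82.8 and 101.1 CPM, close to each other in all 4 suspensions, with a count in 451 of 1781 cells (25.3%, 23.4 to 27.4). It had no count in any mural cell or in the 30 endothelial, 11 microglial and 17 neuronal cells, which allows shares of up to 2.24%, 10%, 27.3% and 17.65%, and 1 of 9 oligodendrocytic cells held 10 counts. Set against a floor of 3 counts over the group, the astrocyte level was 5316-fold that of mural, 1329-fold that of endothelial and 531-fold that of microglial cells. This floor covers the counting of reads only and is no lower bound for the types. For the 11 microglial cells the allowed share of 27.3% is above the 25.3% of astrocytes. The 3 differences from astrocytes were called (edgeR, adjusted p = 0.0325, 0.0387 and 0.0493). All 3 were lost when any suspension was left out or when the suspension was added as a replicate block (adjusted p = 0.0756, 0.0749 and 0.0812), although the counts of 0 in those types were the same in every suspension. They were also lost with no low-count filter (adjusted p = 0.089, 0.0907 and 0.0874), and the microglial call with RLE normalization, ERCC library sizes or library totals as well (0.0609, 0.0643 and 0.0738), so that it held in 6 of 15 alternatives.

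Read over the 8 genes, 6 of 40 comparisons with astrocytes were called, each of them lower in the other type. They were 1 of 8 in mural cells, where 13.4% of all genes were called, 1 of 8 in endothelial cells (17.9%), 3 of 8 in microglial cells (11.3%) and 1 of 8 in neuronal cells (0.562%). With the suspension as a replicate block only the call of Axl in microglial cells held, and no call held without hippocampus 1 or without hippocampus 2. In oligodendrocytic cells 0 of 8 were called by edgeR (0.782% of all genes), with 6 of 8 at an unadjusted p under 0.05 (30.5% of all genes). DESeq2 called 6 of 8 there, but its share over all genes is not given here, so this count has no background beside it. The spread behind these tests was large (biological coefficient of variation 1.86 over 19 sums), so a difference that missed a call is not shown to be absent. The median log2 difference over all genes was itself -1.19 in mural, -2.41 in endothelial, -9.45 in microglial, -8.69 in oligodendrocytic and -2.11 in neuronal cells. When sums were scaled by library totals alone, these medians were -0.57, -1.50, -9.27, -8.38 and -1.10.

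**Figure D1:**
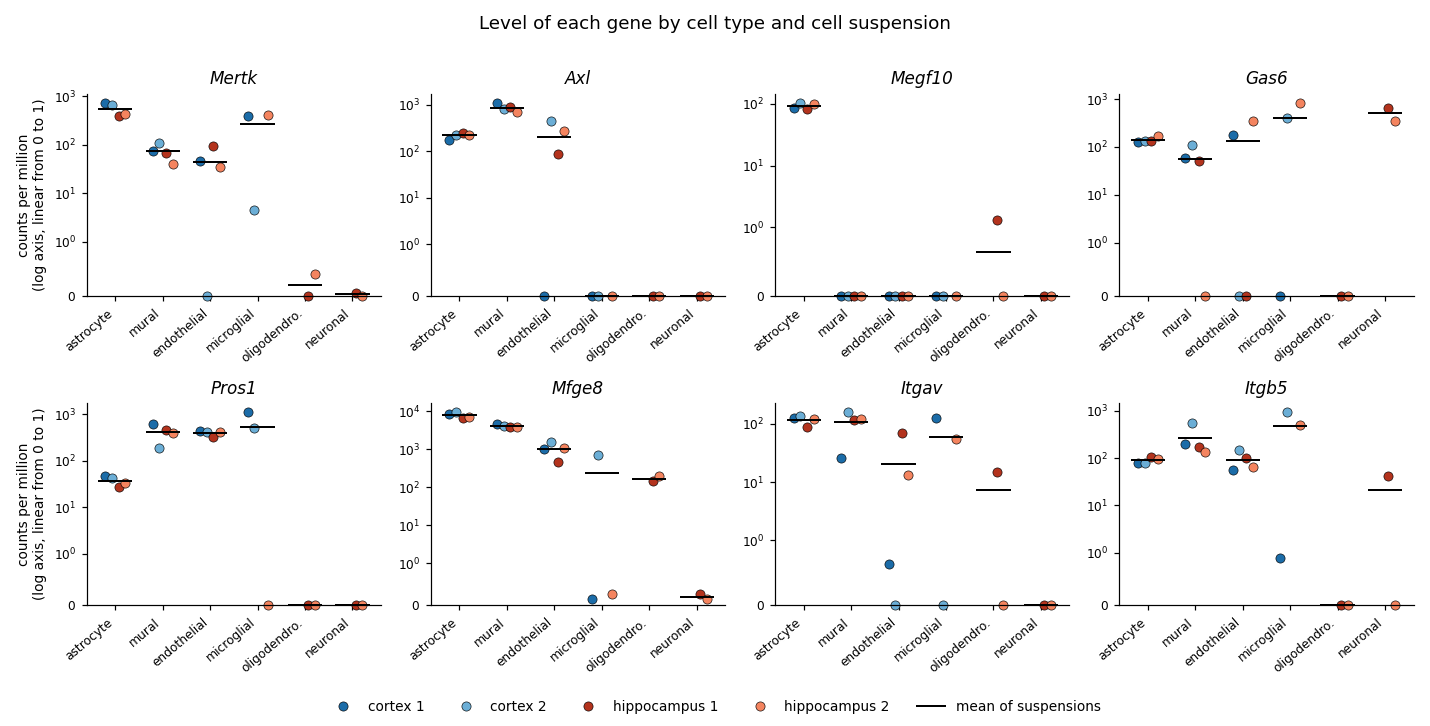
Level of each gene in CPM (log axis, linear from 0 to 1) for 6 cell types, with 1 point per cell suspension of at least 3 cells and a bar at their mean. Mertk, Megf10 and Mfge8 stand highest in astrocytes, Axl highest in mural cells, and Megf10 lies at 0 in every mural, endothelial, microglial and neuronal sum.

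The ligands of the TAM receptors differed in their levels between types, although edgeR called no difference from astrocytes for either. Gas6 (chromosome 8, 13465374 to 13494490, minus strand) was at 168.4 CPM in the astrocytes of hippocampus 2 and at 128.9 CPM in cortex 1, the lowest, with cortex 2 and hippocampus 1 (130.1 CPM) close to that level (mean 140.3 ± 18.9 CPM, SD, n = 4), with a count in 511 of 1781 cells (28.7%, 26.6 to 30.8). The neuronal cells stood above all astrocyte sums at 657.3 CPM in hippocampus 1 and 353.2 CPM in hippocampus 2, with a count in 11 of 17 cells (64.7%, 41.3 to 82.7). With 2 sums this was not called (log2 difference 0.58, SE 2.94, adjusted p = 0.997), and the neuron markers of these cells were sparse, as given above. The fitted difference uses TMM-scaled libraries and a region term, and it is smaller than the CPM values above would give. Mural cells held less, at 58.98, 112.1, 50.55 and 0 CPM, in 7 cells (5.22%). Endothelial and microglial sums were mixed: 0 in 2 of 4 endothelial suspensions and 181.5 and 348.9 CPM in the others, and in microglia 0 to 815.9 CPM, with a count in only 2 of 11 cells. No oligodendrocytic cell held a count.

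Pros1 (chromosome 16, 62854307 to 62929346, plus strand) was low in astrocytes and stood higher in the sums of mural and endothelial cells. Astrocytes gave 46.8, 42.99, 27.5 and 33.5 CPM, with a count in few cells (8.48%, 7.27 to 9.86). Mural cells gave 626.9, 188.0, 471.2 and 403.6 CPM (48 cells, 35.8%) and endothelial cells 450.7, 421.4, 331.8 and 415.6 CPM (16 of 30 cells, 53.3%), so no sum of either type overlapped astrocytes. The log2 differences were 2.93 (SE 1.46, adjusted p = 0.233) and 2.48 (adjusted p = 0.249) in edgeR, neither called, and DESeq2 called both (adjusted p = 0.0351 and 0.0497). Pros1 was also the gene with the clearest contrast between microglial cells of the 2 regions: all 6 cells of cortex held a count, at 1104 and 502.3 CPM, and none of the 5 cells of hippocampus did. With so few cells this was not tested, and it was picked out after its values were seen. Oligodendrocytic and neuronal cells had no count.

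Mfge8 (chromosome 7, 79133768 to 79149060, minus strand), the secreted bridge between phosphatidylserine and integrins, was detected in 1768 of 1781 astrocytes (99.3%) and in every mural cell. Its level was 8475, 9467, 6587 and 7128 CPM in astrocytes and 4578, 4166, 3859 and 3782 CPM in mural cells, lower in 4 of 4 suspensions without reaching a call (log2 difference -1.57, SE 1.39, adjusted p = 0.657). With sums of at least 5 cells, which keep every mural sum, a like difference of -1.54 had a smaller error and was called (SE 0.28, adjusted p = 0.0109), the only one of 16 alternatives to do so. Endothelial cells followed at 1024, 1511, 461.9 and 1083 CPM (log2 difference -3.99, adjusted p = 0.0755), and oligodendrocytic cells at a mean of 167.5 ± 36.03 CPM (SD, n = 2). Microglial cells held 0.149, 720.2 and 0.273 CPM, and neuronal cells 0.26 and 0.14 CPM. Both of these were called lower than astrocytes, with log2 differences of -6.95 (SE 2.05, adjusted p = 0.0434) and -15.95 (SE 3.41, adjusted p = 0.0477) in edgeR. With the suspension as a replicate block both calls were lost (adjusted p = 0.0569 and 0.0888), and each was also lost without cortex 1, hippocampus 1 or hippocampus 2. Both also ended with ERCC library sizes, library totals or no low-count filter. The microglial call ended with RLE normalization as well, and the neuronal call with cells scaled to equal totals or a minimum of 2 cells. They held in 7 of 15 and 7 of 16 alternatives. The microglial sum of cortex 2 that stood high for Mfge8 also held the most astrocyte marker counts (7731 CPM); the part of one in the other was not tested.

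The integrin subunits were moderate and shared by several types. Itgav (chromosome 2, 83724397 to 83806916, plus strand) was at 123.5, 137.6, 86.7 and 121.1 CPM in astrocytes, with a count in 831 of 1781 cells (46.7%), and mural cells lay in and around the same range at 25.9, 155.3, 116.8 and 122.5 CPM. Itgb5 (chromosome 16, 33829665 to 33949338, plus strand) was at 78.5, 78.1, 106.3 and 97.7 CPM in astrocytes and higher in each mural sum, at 193.9, 542.6, 168.7 and 136.9 CPM (log2 difference 0.76, adjusted p = 0.956). Microglial sums of Itgb5 spread from 0.891 to 920.1 CPM, on both sides of the astrocyte and mural sums. Neuronal cells had no count of Itgav and 1 of 17 cells with Itgb5, and oligodendrocytic cells none of Itgb5. The library kit does not mark strand and the strand setting of the counting is not given in the sources used here. Mertk overlaps the annotated genes Gm14011 and Gm23172, Gas6 overlaps Tmem255b, and Itgav overlaps Gm13684 and Dnmt3l-ps1, so the values of these 3 genes are uncertain to the extent of those overlaps.

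**Figure D2:**
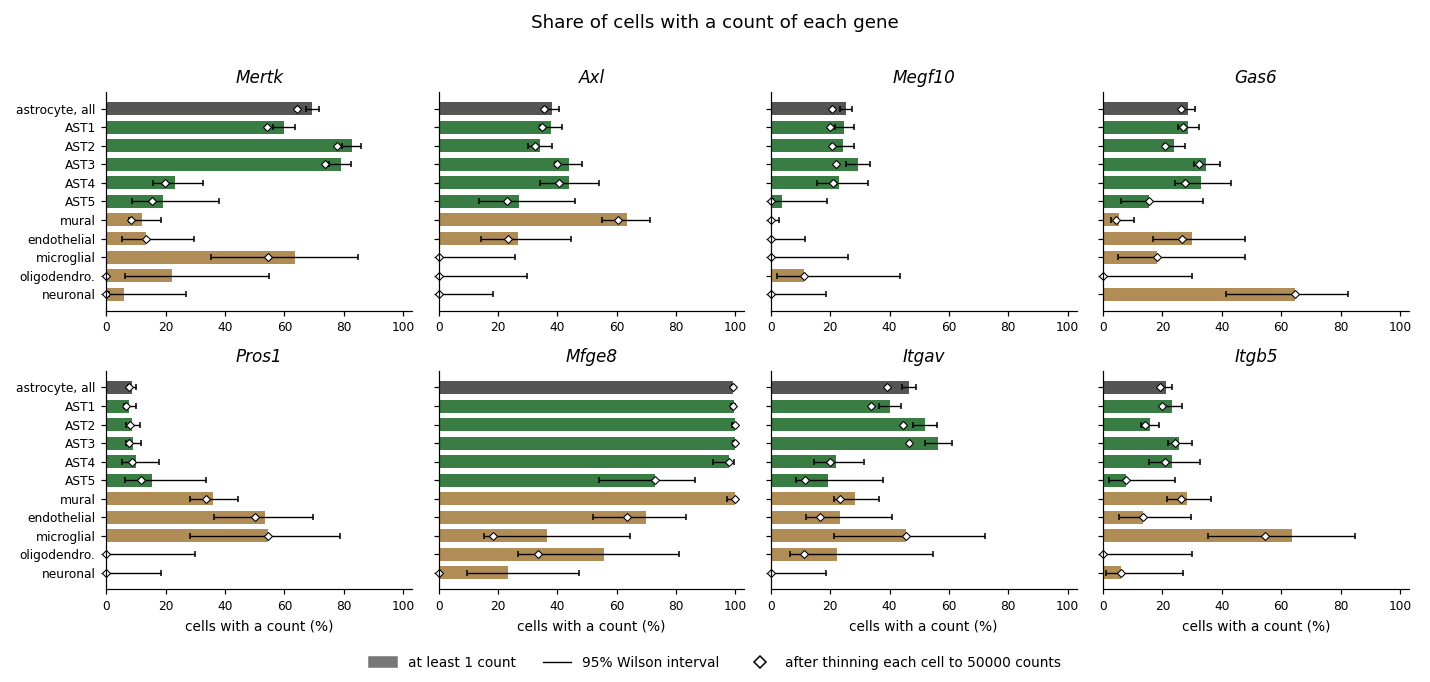
Share of cells with at least 1 count of each gene (bars, %), with 95% Wilson intervals over cells and diamonds for the share after thinning each cell to 50000 gene counts. Mfge8 stays between 97.8% and 100% after thinning in AST1 to AST4 and mural cells. Itgav in AST3 drops from 56.42% to 46.68%, and the small types change most: Mfge8 from 55.56% to 33.33% in oligodendrocytic, 36.36% to 18.18% in microglial and 23.53% to 0% in neuronal cells, and Mertk from 22.22% to 0% in oligodendrocytic cells.

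Among astrocytes, the subtypes AST1 (657 cells), AST2 (555), AST3 (452), AST4 (91) and AST5 (26) had been defined by the study through clustering of the same counts, and Mertk stands in its markers of AST2 and Mfge8 among the genes it lists as common to astrocytes. Differences between subtypes are therefore no independent evidence that these are separate populations. Mertk was highest in AST2, at 889.0, 765.4, 1163 and 767.5 CPM, ahead of AST3 (569.6, 543.3, 601.0 and 458.3 CPM) and AST1 (513.0, 548.8, 374.9 and 449.5 CPM) in 4 of 4 suspensions. The 10 and 22 AST2 cells of hippocampus gave levels as high as the 523 of cortex. Against all other subtypes the difference of AST2 was 0.99 on the log2 scale (SE 0.73) and was not called (adjusted p = 1), and 0 of 8 members were called there, where 0.0548% of all genes were called, and none had an unadjusted p under 0.05 (2.62% of all genes). Within plates, AST2 lay above AST1 in 17 of 23 and above AST3 in 14 of 23. Plates divide the cells of the same suspensions, so here and below such tallies are no further replicates.

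AST4, a subtype of hippocampus, was lower in Mertk than AST1, AST2 and AST3. Its 2 sums gave 72.3 and 93.9 CPM, below every sum of AST1, AST2 and AST3, and 21 of 91 cells held a count (23.1%, 15.6 to 32.7) against 460 of 555 in AST2 (82.9%, 79.5 to 85.8). Within hippocampus the difference from AST1 was -2.58 (SE 0.35, adjusted p = 0.00545) and from AST3 -2.90 (SE 0.36, adjusted p = 0.00186), both called in edgeR, where 0.18% and 0.216% of all genes were called. Comparisons of AST4 with single subtypes of hippocampus were not among those planned. The planned one, against all other subtypes at once, is given at the end of this paragraph. With library sizes set by the ERCC controls the call against AST1 was lost (adjusted p = 0.0702), and that against AST3 held under all 9 alternatives (adjusted p up to 0.0129). The direction was the same in 14 of 14 plates against AST1 and 13 of 13 against AST3, all of them plates of the same 2 suspensions. Mfge8 was also lower in AST4 than in AST3 of hippocampus, at 5341 and 5016 against 8674 and 9626 CPM (log2 difference -1.05, SE 0.17, adjusted p = 0.0202, lower in 13 of 13 plates), a call that also ended with ERCC library sizes (adjusted p = 0.52). Against AST1 of hippocampus the log2 difference of Mfge8 was -0.62 (SE 0.17) and was not called (edgeR, adjusted p = 0.429). Axl (238.8 and 174.4 CPM) and Megf10 (106.8 and 85.9 CPM) in AST4 lay in the range of the other subtypes. AST4 also carried more of a neural progenitor marker list (776.3 to 977.9 CPM, against 28.9 to 127.6 CPM in AST1 to AST3; 4 of 6 genes detected, Eomes and Dcx at 0 in both) and less of the astrocyte list (29590 to 31720 against 38250 to 46970 CPM); their part in the lower Mertk was not tested. Against all other subtypes at once, in a fit with a larger spread, AST4 had 0 of 8 members called (0.636% of all genes; Mertk -2.85, SE 1.24, adjusted p = 0.578), with Mertk and Mfge8 at an unadjusted p under 0.05 (7.82% of all genes).

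Mfge8 was highest in AST3 in 4 of 4 suspensions, at 10260, 11170, 8674 and 9626 CPM, with AST1 at 8307, 9975, 6357 and 6847 CPM and AST2 at 7441, 8483, 6594 and 5836 CPM. The difference of AST3 from the other subtypes was 0.56 (SE 0.18) on the log2 scale, with p = 0.00899 in edgeR before and an adjusted p of 1 after correction, and 0 of 8 members and 0% of all genes were called for AST3, with Mfge8 the only member at an unadjusted p under 0.05 (1.89% of all genes). Within plates AST3 lay above AST1 in 28 of 31 and above AST2 in 21 of 23.

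AST5 held 3 of the 8 genes at reduced levels. Megf10 was at 0 in both cortex sums and at 0.115 CPM in hippocampus 1, a single count in 1 of 26 cells, against 36.5 to 124.6 CPM in the sums of AST1 to AST4 (log2 difference -12.06, SE 1.07, adjusted p = 4.03e-06). Mfge8 fell to 2305, 1668 and 691.6 CPM (log2 difference -3.17, SE 0.26, adjusted p = 2.02e-06) and Mertk to 103.4, 109.1 and 0.115 CPM (log2 difference -3.84, SE 1.11, adjusted p = 0.0296). The Mertk call was lost under 6 of 16 alternatives (adjusted p up to 0.127), among them the replicate block (0.0603) and the fits without cortex 1, cortex 2 or hippocampus 2, whereas those of Megf10 and Mfge8 held in 16 of 16. Axl, Gas6 and Pros1 were scattered in AST5, from 0 to 350.8, 270.2 and 216.1 CPM, the highest lying above every sum of AST1 to AST4, while the highest AST5 sums of Itgav (93.8 CPM) and Itgb5 (96.6 CPM) lay among those of the other subtypes. Of all genes 17% were called in AST5, 16.6% in the direction of lower, and the median log2 difference over all genes was -4.55. AST5 cells had a median of 1.59% of reads outside exons against 10.7% to 13.96% in AST1 to AST4, while their astrocyte markers summed to 35970 to 43710 CPM; whether the loss of these 3 genes goes with that property of the libraries was not tested.

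Axl, Gas6, Pros1, Itgav and Itgb5 gave no call in any subtype, and their sums overlapped among AST1, AST2 and AST3. AST1 had 0 of 8 members called (0.0384% of all genes) and none at an unadjusted p under 0.05 (4.29%).

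**Figure D3:**
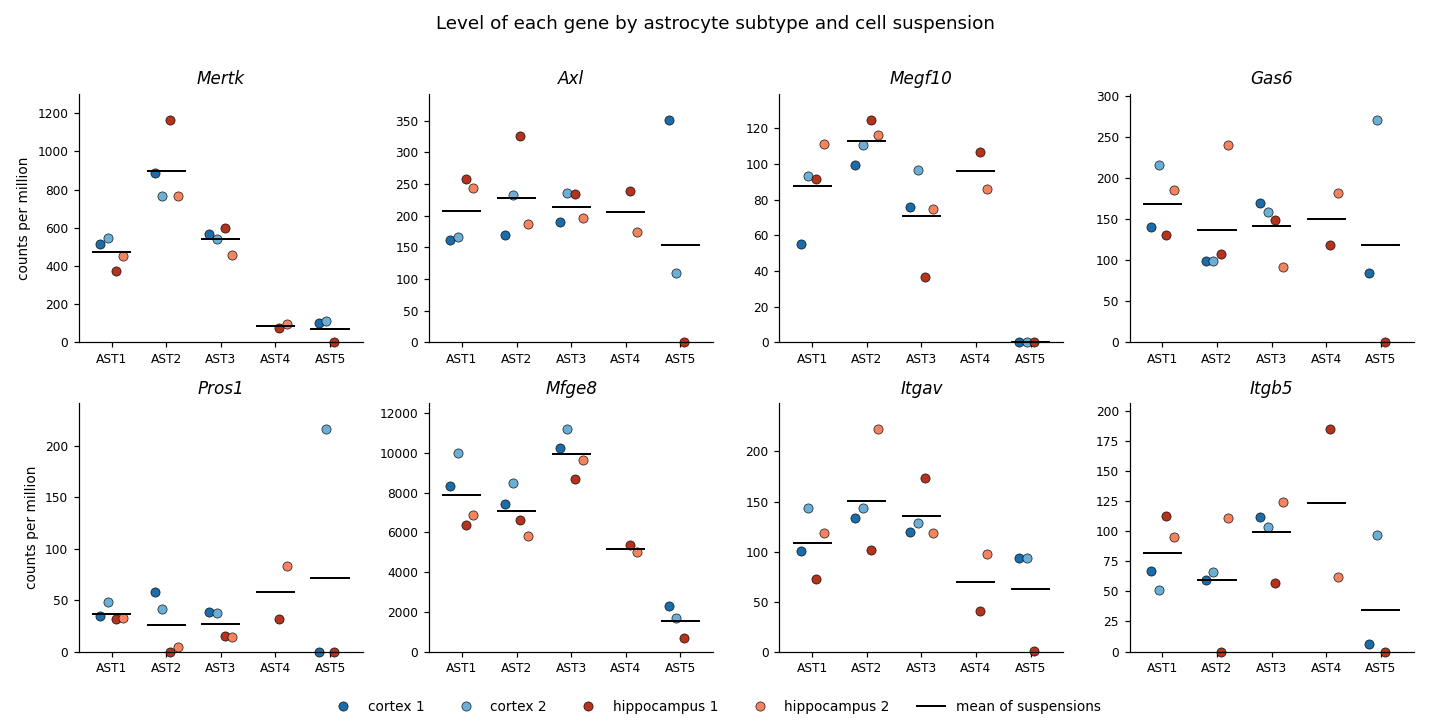
Level of each gene in CPM (linear axis from 0) for the 5 astrocyte subtypes, with 1 point per suspension of at least 5 cells and a bar at their mean. Mertk is highest in AST2 and lies near 100 CPM or below in AST4 and AST5, Mfge8 is highest in AST3, and Megf10 is at or next to 0 in AST5.

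Between regions, astrocytes of hippocampus held less Mertk and Mfge8 than those of cortex in both suspensions of each region. Over all astrocytes Mertk was 683.7 ± 36.6 CPM in cortex and 411.0 ± 22.2 CPM in hippocampus (SD, n = 2 each), and the share of cells with a count was 81.6% and 77.35% in cortex against 55.98% and 59.35% in hippocampus. The log2 difference was -0.71 (SE 0.07, p = 0.000723), with an adjusted p of 0.155 in edgeR's test, which called 0 of 8 members and 0 of 19160 genes (0%), although 4 of 8 members and 13.6% of all genes had an unadjusted p under 0.05. DESeq2 called Mertk, Mfge8 and Itgb5 (adjusted p = 6.23e-17, 0.000176 and 0.0209), but the share of all genes that it called is not given here. Mertk was lower in hippocampus at 10 of 10 reverse transcription dates that held both regions. The dates divide the cells of the same suspensions and litters, so here and below they are no further replicates.

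The subtype makeup of the regions differed strongly. AST2, high in Mertk, made up 52.1% and 56.7% of the typed astrocytes in cortex but 2.54% and 5.14% (10 and 22 cells) in hippocampus, and AST4, low in Mertk, was 2 and 0 cells in cortex but 41 and 48 in hippocampus. Within AST1, AST2 and AST3 the regional log2 differences of Mertk were -0.31, 0.08 and -0.03 (SE 0.33 each, adjusted p = 1 in edgeR). Over the cells of AST1, AST2 and AST3 alone, without reweighting, the fitted difference was -0.53 (SE 0.07, adjusted p = 0.251). When AST4 and AST5 were left out and AST1, AST2 and AST3 were also given equal weight, Mertk was 657.2 and 619.2 CPM in cortex and 713.1 and 558.5 CPM in hippocampus, a log2 difference of -0.02 with overlapping regions, against -0.73 on the same scale for all astrocytes. The hippocampal AST2 levels in this mean rest on 10 and 22 cells. Since Mertk is itself among the study's AST2 markers, these values do not separate subtype makeup from the level of Mertk.

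Mfge8 kept its regional order under equal weights. It was 8971 CPM in cortex and 6858 CPM in hippocampus over all astrocytes (log2 difference -0.36, SE 0.08, adjusted p = 0.237), and 8671 and 9876 against 7208 and 7436 CPM with equal weights, without overlap in both cases. Within subtypes the log2 difference was -0.42 (SE 0.17, p = 0.0281, adjusted p = 1) in AST1, -0.49 (SE 0.17, p = 0.012, adjusted p = 0.388) in AST2 and -0.18 (SE 0.17, adjusted p = 1) in AST3, none called by edgeR. Astrocytes of hippocampus were lower in Mfge8 at 10 of 10 reverse transcription dates, AST1 at 10 of 10 and AST3 at 9 of 10. The mural sums of hippocampus (3859 and 3782 CPM) also lay below those of cortex (4578 and 4166 CPM), but the fitted log2 difference, which uses TMM-scaled libraries, was 0.06 (SE 0.17), and the difference between mural and AST1 or AST3 effects was not called.

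Pros1 was likewise lower in hippocampus, at 30.5 against 44.9 CPM (log2 difference -0.53, SE 0.17, adjusted p = 0.324). With equal weights the log2 difference was -1.39, again without overlap, against -0.56 on the same scale for all astrocytes. The hippocampal AST2 levels in the equal-weight mean rest on 10 and 22 cells. The sums of hippocampus lay below those of cortex in each of the larger subtypes: 31.5 and 33.05 against 34.9 and 48.1 CPM in AST1, 15.1 and 14.4 against 38.7 and 37.3 CPM in AST3, and 0 and 4.31 against 57.7 and 41.3 CPM in AST2, where hippocampus had 10 and 22 cells. The log2 differences were -0.32 (SE 1.99), -1.32 (SE 2.02) and -4.55 (SE 2.31), none called by edgeR (adjusted p = 1, 1 and 0.652). Shares of cells with a Pros1 count did not keep the order of the sums. In hippocampus and cortex they were 7.75% and 7.66% against 5.26% and 9.09% in AST1. They were 3.08% and 10.98% against 8.44% and 10.6% in AST3, and 0% and 9.09% against 9.17% and 8.48% in AST2. In hippocampus these were 2 and 9 cells of AST3 and 0 and 2 cells of AST2. Itgb5 was at 106.3 and 97.7 CPM in hippocampus against 78.5 and 78.1 CPM in cortex (log2 difference 0.41, SE 0.10, adjusted p = 0.238) and Itgav at 103.9 against 130.6 CPM on average, and with equal weights these log2 differences were 0.05 and 0.06, with overlapping regions. Axl, Gas6 and Megf10 overlapped between regions with either weighting. For Axl, hippocampus was higher at 8 of 10 dates in AST1 and 3 of 10 in AST3, but over suspensions the log2 differences were 0.67 (SE 0.49) and 0.06 (SE 0.49), and edgeR's test of the difference between them was not called (p = 0.394, adjusted p = 1). Within types, 0 of 8 members were called by edgeR in AST1, AST2, AST3 or mural cells (0%, 0.203%, 0% and 0.622% of all genes called), with only Mfge8 in AST1 and in AST2 at an unadjusted p under 0.05 (2.5%, 8.19%, 1.9% and 9.18% of all genes), and no difference between the regional effects of subtypes was called for a member.

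**Figure D4:**
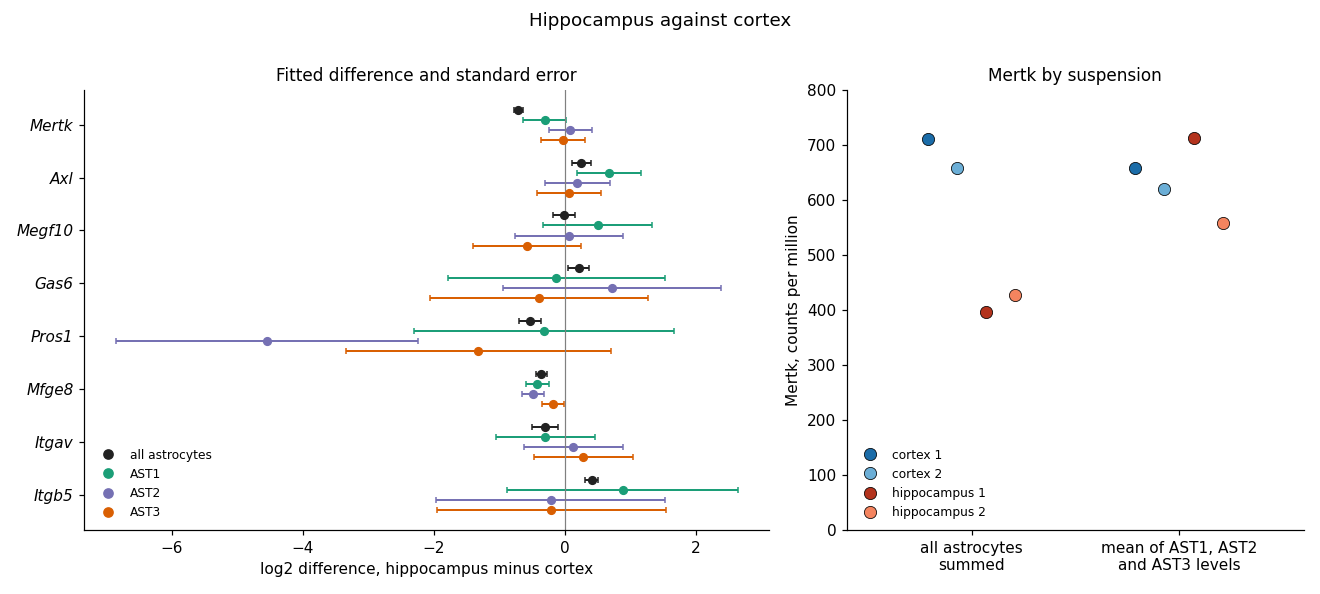
Left: log2 difference of hippocampus minus cortex with its standard error for each gene, over all astrocytes and within AST1, AST2 and AST3. Right: Mertk in CPM by suspension, over all astrocytes and as the mean of the AST1, AST2 and AST3 levels; the cortex points lie above the hippocampus points on the left of this panel (657.8 to 709.6 against 395.3 to 426.7 CPM) and among them on the right.

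Of the 3 receptors Mertk, Axl and Megf10, 15.5% of astrocytes had a count of none, 44.1% of 1, 32.3% of 2 and 8.09% of all 3. Cells with none were rarest in AST2 (9.37%) and AST3 (10.2%), followed by AST1 (19.8%), and made up 35.2% of AST4 and 61.5% of the 26 AST5 cells. These shares were taken without thinning, and a receptor without a count may still be expressed. Median gene counts per cell ran from 1191000 in AST5 to 1660000 in AST3, and their part in the shares was not tested. After thinning each cell to 50000 counts, and within the 12 larger sets of cells of the same subtype and suspension, Mertk and Axl were found together in 412 astrocytes, where the products of their shares in each set sum to 393.6. Over the 28 pairs of the 8 genes this ratio ran from 0.904 to 1.195, and the median rank correlation over the same 12 sets ran from -0.064 to 0.073. No pair was tested.

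Over the 19 sums of the cell types, the genes whose log2(CPM + 1) values followed a member most closely were named by the highest Pearson correlation. The sums share suspensions and the astrocyte sums share most of their genes, so these values are a description. Megf10 was closest to Faah and Ndp (r = 0.997 for both), whereas Axl was closest to Prelp (0.987) and Rc3h1 (0.966). Pros1 followed Map2k3 (0.968) and Zfp36l1 (0.941), and Gas6 followed Rsph3a (0.908) and Wdr83os (0.893). Mertk was closest to Acer3 (0.878) and Trib1 (0.876). Itgav was closest to Acer3 (0.898) and to Mertk itself (0.863). Itgb5 had Phf20l1 (0.904) and Tnfrsf1a (0.870).

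The wider pathway was followed in 9 lists of 98 genes, the members included, of which 87 could be tested between cell types. In mural cells 4 genes were higher and 11 lower than in astrocytes (17.2% of the list genes, 13.4% of all genes), in endothelial cells 4 and 12 (18.4% and 17.9%), in microglial cells 7 and 13 (23% and 11.3%), in oligodendrocytic cells 0 and 1 (1.15% and 0.782%) and in neuronal cells 0 and 3 (3.45% and 0.562%). The medians of the lists' log2 differences were -0.71, -1.04, -2.41, -4.90 and -2.15 in mural, endothelial, microglial, oligodendrocytic and neuronal cells, beside -1.19, -2.41, -9.45, -8.69 and -2.11 for all genes. A total of 31 list genes were called in at least 1 type, and 1, Scarb1, in all 5.

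Scarb1, a scavenger receptor that also binds phosphatidylserine, was at 18.4 CPM in astrocytes, 285.7 in mural and 494.9 in endothelial cells (log2 difference for endothelial 3.74, SE 1.02, adjusted p = 0.0387), and at 0 in microglial, oligodendrocytic and neuronal sums. The sums at 0 held 3 cells each in microglial, 4 and 3 in oligodendrocytic and 8 and 9 in neuronal cells. Here and below, a 0 in sums of so few cells does not show that a type lacks a gene. Among relatives of the members, Tyro3, the third TAM receptor, was at 24.2 CPM in astrocytes and at 0 in mural, endothelial and microglial sums (adjusted p = 0.0325, 0.037 and 0.039), while the 2 oligodendrocytic sums held 378.6 and 473 CPM. Pear1, a paralogue of Megf10, had the opposite pattern: 588.9 CPM in mural and 278.4 CPM in endothelial cells against 0.042 CPM in astrocytes (log2 differences 13.65 and 12.28, adjusted p = 0.0159 and 0.0208). The brain angiogenesis inhibitor family genes Adgrb2 and Adgrb3 (42.6 and 82.8 CPM in astrocytes) were at 0 in mural and endothelial cells and called in both. Of the integrin list, Itgb8 was at 101.9 CPM in astrocytes and 0 in endothelial and microglial sums, while the ligand Vtn, itself a mural marker, was at 26755 CPM in mural and 7209 CPM in endothelial cells.

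Microglial cells carried their own uptake genes. The C1q subunit genes C1qa, C1qb and C1qc were at 4746, 7919 and 6329 CPM against 0.904, 2.93 and 0.987 CPM in astrocytes (adjusted p = 0.0194, 0.0388 and 0.0239), Trem2 at 1720 against 0.304 CPM (adjusted p = 0.0238) and Itgam at 119.1 against 0 (adjusted p = 0.016). C1qa, C1qb and C1qc are also among the microglial markers used above. Dock1 (140.6 CPM in astrocytes), an exchange factor of the engulfment pathway, and Bcar1 (28.7 CPM) and Src (46.8 CPM) were at 0 in microglial sums (adjusted p = 0.00925, 0.00795 and 0.0208). Each of these sums holds 3 cells, and the median log2 difference of microglial cells over all genes was -9.45. The values of 0 therefore do not show that microglia lack Dock1, Bcar1 or Src. How these 3 calls fare without a suspension is not given here. Sirpa, the receptor of the inhibitory signal CD47, was at 3130 CPM in microglial sums (1638 to 4682), at 643.5 CPM in astrocytes and at 0 in endothelial cells (adjusted p = 0.0162 for endothelial cells against astrocytes). Its difference between microglial cells and astrocytes was not called. All of these adjusted p-values are from edgeR.

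Among subtypes 78 list genes could be tested. AST5 had 23 of them lower and 0 higher (29.5% called, beside 17% of all genes), AST4 had 1 higher (1.28% beside 0.636%), and AST1, AST2 and AST3 none (beside 0.0384%, 0.0548% and 0% of all genes). The median log2 difference of the list genes in AST5 was -3.29, less reduced than the -4.55 of all genes. In AST5 the lower genes included Abca1 (0 against 133.4 CPM, adjusted p = 9.45e-06), a lipid exporter, Ggcx (0 against 74.7 CPM, adjusted p = 1.48e-05), the vitamin K-dependent carboxylase that makes GAS6 and protein S active, and Adam17 (0 against 67.8 CPM, adjusted p = 8.15e-06), the protease that sheds MERTK. Lamp2, a lysosomal membrane protein, was lower but present (265.3 against 556.4 CPM, log2 difference -1.77, SE 0.24, adjusted p = 0.000153 in edgeR). The gene of AST4 was Vtn, which rested on hippocampus 2 alone (304.3 CPM, against 0.0645 CPM in hippocampus 1; adjusted p = 0.00254). Between regions, over all astrocytes, 0 of 78 list genes were called by edgeR, where 0% of all genes were, and within subtypes 1 of 82 was, in AST2 (1.22% beside 0.203% of all genes). It was Itgb1 (3.17 CPM in hippocampus against 80.4 CPM in cortex, log2 difference -4.78, SE 0.74, adjusted p = 0.0205). The hippocampal AST2 sums behind this call held only 10 and 22 cells. The larger subtypes did not share the direction: in AST3 both hippocampal sums of Itgb1 lay above both cortical ones, and in AST1 between them. Over all astrocytes Itgb1 was at 95.82 and 105.5 CPM in hippocampus against 92.59 and 92.95 CPM in cortex.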

How the data were processed

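Per the labels, libraries were sequenced as paired 75 bp reads on a NextSeq 500; the submitters' processing notes and the methods name FastQC 0.11.4, STAR 2.5.2b, HTSeq and genome build GRCm38.p5. The authors deposited raw gene counts per cell with the ERCC controls, and a table of all cells. For 32 cells checked, the 256 values of the 8 genes were equal in both. The other 1999 columns of that table were not read. Of the 2031 cells of the series, 2030 had a file of their own here, and the remaining 1 was not analysed. Types and subtypes came from the study's list of cells, made from the same counts. The members and the 9 pathway lists were chosen with earlier results of these data known.

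Counts were summed per type and suspension (at least 3 cells for types, 5 for subtypes and regions) and tested with edgeR 4.0.16 (R 4.3.3; TMM, low-count filter, robust quasi-likelihood fit, region as covariate). Each non-astrocyte type was set against all astrocytes, each subtype against the others weighted by cell number, and hippocampus against cortex over 4 astrocyte sums and within types (16368, 18233, 19160 and 21717 genes). Differences between subtypes within a region, and differences between regional effects, came from the fit within types and were not planned. Alternatives were DESeq2 1.42.0, limma 3.58.1 on mean log2 values, other scalings, filters and minimum cells, thinning to 50000 counts, leaving out each suspension and the suspension as a block. Types of a suspension come from the same preparation and are paired by it; across regions the numbers 1 and 2 pair nothing. P-values measure the spread left between the sums of each fit. These are 19 for types, 17 for subtypes, 4 for regions over all astrocytes and 21 within types. All come from the 4 suspensions, some rest on few cells, and the main fits do not use the pairing of types. Median depth per cell was 1458411 gene counts. Named list genes were the up to 3 called genes of each list with the lowest adjusted p in a comparison, those called in all 5 types, and the 2 genes most alike to each member (those of Mfge8 are not reported here). Of the 2030 cells, 33 were not in the copy of the list of cells used here and 15 had no type; these 48 entered no comparison. No member sequence is printed here.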

Additional observations from a re-analysis of the deposited data

Results flagged for a closer look

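Of 46 groups of 4 suspensions, 3 had a suspension that stood apart from the other 3 in the level of a member, and chance alone sets about 1 in 20 groups apart. Gas6 in all astrocytes was 168.4 CPM in hippocampus 2, beside a lowest value of 128.9 CPM in cortex 1 and a mean of 131.4 ± 3.58 CPM over both cortex suspensions (SD, n = 2). Gas6 in AST2 was 239.7 CPM in hippocampus 2, where AST2 held 22 cells, beside 98.5 to 107.7 CPM. Itgb5 in mural cells was 542.6 CPM in cortex 2, a sum of 12 cells, beside 136.9 to 193.9 CPM.

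The 33 cells that the list of types used here does not hold, all of them from cortex 1, entered no comparison. A count was found in 75.76% of them for Mertk, 42.42% for Axl, 21.21% for Gas6, 15.15% for Pros1, 18.18% for Megf10, 100% for Mfge8, 48.48% for Itgav and 6.06% for Itgb5 (2 cells, 1.68 to 19.6; 15.3 CPM). Mertk reached 773.9 CPM and Mfge8 8030 CPM in their sum. Of the 15 cells listed without a type, 26.67% held Mertk and 86.67% held Mfge8, and 0 of 15 held Megf10 or Itgb5, which allows shares of up to 20%. No type is given to these cells here.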

How the results depend on the processing

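Of the 40 comparisons of members between types, edgeR called 6, and the count became 3 with ERCC library sizes, 3 with library totals (added after seeing the data), 22 with DESeq2, 1 with no low-count filter, 11 after thinning, 17 with limma, 12 of 24 with sums of at least 5 cells, and 1 with the suspension as replicate block (Axl in microglial cells). Without 1 suspension it was 0 to 6, with 0 when hippocampus 1 or hippocampus 2 was left out and 3 without cortex 1. Of all 16368 genes, ERCC library sizes called 2239 in mural, 2125 in endothelial, 1043 in microglial, 93 in oligodendrocytic and 71 in neuronal cells. The main fit called 2191, 2927, 1857, 128 and 92. For DESeq2, limma, thinning and the remaining alternatives in this section the share over all genes is not given here, so those counts of members have no background beside them. Of 40 subtype comparisons 3 were called, 5 with limma, 8 with equal weights, 7 with sums of at least 10 cells, 2 with the replicate block and 2 to 5 without 1 suspension (5 without hippocampus 1). With equal weights, which give AST5 the weight of the larger subtypes, Megf10 turned from lower to higher in AST3 (log2 difference 2.75) and AST4 (2.69). Over all astrocytes 0 of 8 region comparisons were called, 3 with DESeq2, 1 after thinning, 1 with limma, and 0 without any 1 suspension. Within types it was 0 of 32, and 0 to 1 without 1 suspension (1 without hippocampus 1, Gas6 in mural cells). The suspension number as replicate block gave 0 calls for regions; deviations of suspensions with the same number correlated at -0.01. The causes were not tested. The calls of Megf10 and Mfge8 in AST5 held in 16 of 16 alternatives. The limits are 2 suspensions per region, 9 to 30 cells in 4 of the types, and subtypes that come from the same counts.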
